A study of Mus musculus with 24 samples.

Results

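Cytokines of the interleukin-6 family bind receptors that share the gp130 chain and activate the kinases JAK1, JAK2 and TYK2 bound to these receptors, which then phosphorylate STAT3. STAT3 enters the nucleus and switches on target genes, among them that of its feedback inhibitor SOCS3. The family of SOCS inhibitors includes SOCS1, SOCS2, SOCS3 and CISH. SOCS1 and SOCS3 block the kinases or the receptor, whereas SOCS2 and CISH are best known for limiting growth hormone and other STAT5 signals. In the spinal cord, STAT3 is known for its role in the reaction of astrocytes around a lesion. The genes described here are the kinases Jak1, Jak2 and Tyk2, the transcription factor Stat3 and the inhibitors Socs1, Socs2, Socs3 and Cish, 8 of the 17097 genes named on the arrays of the ependymal region and of the 22180 named on the arrays of neurospheres. They were chosen by symbol as members of the pathway, with earlier results of these data known, and no measured value enters the rule. All 8 were measured in both tables, with 15 probe sets on the ependymal arrays and 11 on the neurosphere arrays. A probe set is a group of short probes for a transcript, and of several for a gene the one with the highest mean log2 signal over the 12 arrays of the table was used. Arrays measure RNA and not the phosphorylation through which these proteins act.

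The central canal region was taken by laser microdissection from CD1 mice of 3 months, 6 sham mice with a laminectomy alone and 6 injured mice with a laminectomy and needle insertions beside the canal, 3 days after surgery. Neurospheres, floating clusters of stem and progenitor cells, were grown from adult spinal cord as 4 cultures and profiled in 3 states. The first was growth with EGF, FGF2 and heparin (with growth factors). The second was 3 days without these factors, dissociated and attached to coated coverslips, with 2% serum (without). The third was a further 3 days with EGF, FGF2 and heparin again and no serum (returned). Attachment and serum changed together with the withdrawal and cannot be told apart from it. Serum was removed when the factors returned, so the return cannot be told apart from the loss of serum either. The labels and the paper's results on these arrays give 3 days without factors, while its methods give a longer time for differentiation. The labels give passage 1 and the paper a later passage, so the passage is uncertain. Both array types report log2 signals, but they differ in design and were normalized apart, so no level is set against the other table.

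The binding motif of STAT proteins reads TTCNNNGAA, which is its own reverse complement and so the same on both strands. It was searched for in RefSeq promoter windows (GRCm38.p6) that run from 250 bases before to 50 bases after a gene's start. Windows were given for 7 of the 8 genes, all but Socs2. The 2 that hold the motif belong to Socs3 and Cish, where 8.3% of all 32851 windows hold it. The sequences below show the motif in capitals in the inhibitor with the largest difference after injury (Socs3), its absence in the 250 bases before Stat3, and the 2 motifs at the start of Cish.
Socs3: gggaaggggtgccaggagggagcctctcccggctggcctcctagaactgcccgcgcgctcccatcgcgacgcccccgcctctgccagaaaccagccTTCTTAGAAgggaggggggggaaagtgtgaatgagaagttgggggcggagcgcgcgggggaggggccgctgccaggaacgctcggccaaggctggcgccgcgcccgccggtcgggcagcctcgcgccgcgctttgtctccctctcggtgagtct
Stat3: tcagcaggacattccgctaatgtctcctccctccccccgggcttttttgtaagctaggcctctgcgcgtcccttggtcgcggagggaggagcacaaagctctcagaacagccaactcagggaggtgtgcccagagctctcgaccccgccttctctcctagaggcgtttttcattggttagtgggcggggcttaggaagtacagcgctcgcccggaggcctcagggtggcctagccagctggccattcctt
Cish: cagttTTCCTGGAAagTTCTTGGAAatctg
The Socs3 stretch lies on the minus strand at chr11:117969367-117969616, with its motif at chr11:117969512-117969520 (positions -154 to -146 from the start). The Stat3 stretch lies on the minus strand at chr11:100939541-100939790, directly before the start. The Cish stretch lies on the plus strand at chr9:107296654-107296683 and crosses the start, with motifs at bases 1 to 9 and 12 to 20 of the gene. Cish is 1 of few genes with more than 1 motif in its window, as only 150 windows (0.457%) hold 2 or more. Among genes tested on the ependymal arrays that have a window, 8.76% hold the motif, against 10.7% of those that were higher after injury (41 of 383) and 7.42% of those that were lower (19 of 256). A match describes the letters in the window and was not tested as a binding site.

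The 12 ependymal arrays fall into 3 sets by the distribution of their signals, each with 2 sham and 2 injured mice (numbers 1 and 2, 3 and 4, 5 and 6). The labels do not say what the sets are, and values of the 8 genes and counts of the lists are therefore also given with the set as a block or within sets. The 12 markers of ependymal cells were bright on every array, with list means of 10.42 to 10.84 in sham and 9.50 to 9.94 in injured mice. Signal of skeletal muscle (list mean 5.05 to 9.44 in sham, 4.78 to 8.14 in injured) and of neutrophils (5.20 to 10.95 and 4.74 to 10.62) varied widely within both groups. In neurospheres the markers of microglia (3.69 to 3.99), neutrophils (3.32 to 3.59) and muscle (3.86 to 4.23) stayed low in all 3 states.

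After injury Socs3, Socs2 and Stat3 rose, and none of the kinases passed the test. Socs3, the feedback inhibitor of gp130 signals, rose 10.4-fold, Socs2 4.81-fold and Stat3 2.43-fold. Thus 3 of the 8 genes were called higher and 0 lower in limma, at an adjusted p (Benjamini-Hochberg) under 0.05, where 2.91% of all genes were called higher and 1.87% lower. With the set as a block the same 3 were called higher and none lower, where 2046 of all 17097 genes (12%) were higher and 13.1% lower. These 3 were also the members whose injured mice all lay above all sham mice, as did 2.88% of all genes, and those that met the thresholds of the study's methods (p not above 0.05 without adjustment, and at least a 2-fold change), as did 2.16%. The median log2 difference was 0.16 over the 8 genes and 0.02 over all genes. In these bulk samples, fewer cells of a type and less RNA per cell cannot be told apart.

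Stat3 had log2 signals of 8.87, 8.89, 8.05, 8.31, 8.23 and 8.50 in sham mice 1 to 6 and of 10.03, 10.09, 9.70, 9.32, 9.78 and 9.63 in injured mice 1 to 6. The lowest injured mouse lay above the highest sham mouse, and mice 1 and 2 of each group were the brightest of their group. The means were 8.48 ± 0.35 and 9.76 ± 0.28 (SD, n = 6 each), a log2 difference of 1.28 (SE 0.18, 95% interval 0.90 to 1.67) with a limma adjusted p of 0.00136. Within the 3 sets of arrays the difference was 1.18, 1.33 and 1.34, and a block for the set gave an adjusted p of 5.83e-06. A second, dimmer probe set of Stat3 (means 5.20 ± 0.40 and 5.48 ± 0.39) differed by 0.29 with an adjusted p of 0.877. It passed with the set as a block (adjusted p = 0.0063) and with the mouse number as a block (adjusted p = 0.0166). The mean of both probe sets was 0.79 higher in injured mice (adjusted p = 0.0149).

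Among the kinases that act upstream of STAT3, Jak1 had log2 signals of 8.28, 8.47, 8.68, 8.92, 7.91 and 8.31 in sham mice and 8.39, 8.15, 8.44, 8.36, 7.95 and 8.21 in injured mice. The groups overlapped, although sham mice 3 and 4 lay above every injured mouse, with a difference of -0.18 (95% interval -0.53 to 0.17). Jak2 read 9.07, 8.97, 8.61, 8.65, 8.75 and 8.97 in sham and 8.69, 8.90, 8.39, 8.24, 9.06 and 8.90 in injured mice, a difference of -0.14 (-0.47 to 0.19). Tyk2 read 5.95, 5.85, 5.04, 5.55, 5.24 and 5.45 in sham and 6.13, 6.16, 5.59, 5.22, 5.33 and 5.35 in injured mice. Its groups overlapped as well, with a difference of 0.12 (-0.34 to 0.57). None of these intervals reaches the lower bound of the change of Stat3 (0.90). A block for the set gave adjusted p of 0.269 for Jak1, 0.319 for Jak2 and 0.49 for Tyk2, and the other probe sets of Jak1 (0.01 and 0.10) and Jak2 (-0.02) did not pass either.

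Socs3 read 5.15, 5.25, 5.97, 5.16, 5.69 and 5.08 in sham mice and 8.71, 7.48, 9.37, 9.25, 8.50 and 9.24 in injured mice. The groups were far apart, and injured mouse 2 was the lowest of its group. The difference of the means (5.38 ± 0.36 and 8.76 ± 0.71, SD, n = 6) was 3.38 on the log2 scale (SE 0.30, 2.73 to 4.02), with a limma adjusted p of 5.22e-05. It was 2.90, 3.75 and 3.49 within the 3 sets, and the adjusted p was 1.24e-05 with the set as a block. The dim end is uncertain, because 2 of the 12 arrays had Socs3 below the median signal of the array.

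Socs2, a regulator of growth hormone signals, read 5.45, 5.37, 5.00, 5.13, 4.85 and 5.22 in sham mice and 7.34, 6.99, 6.81, 7.58, 7.86 and 8.04 in injured mice. No injured mouse overlapped a sham mouse, and the injured mice of the third set were the brightest. The difference was 2.27 (SE 0.21, 1.82 to 2.71) between means of 5.17 ± 0.23 and 7.44 ± 0.48, with a limma adjusted p of 6.19e-05, and 1.76, 2.13 and 2.91 within the sets. Its probe sets did not read alike. The second brightest rose by 1.87 (adjusted p = 0.0025). Another differed by 0.58 (adjusted p 0.275 without a block) and passed with the set (0.0059) or the mouse number (0.0273) as a block. The last differed by 0.10 and lay in the lower quartile of every array. The mean of all 4 was 1.21 higher in injured mice (adjusted p = 0.00126).

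Socs1, best known as the inhibitor of interferon signals, lay between 4.23 and 4.47 in sham and between 4.25 and 4.70 in injured mice, below the array median on 12 of 12 arrays. Its difference was 0.07 (-0.14 to 0.28) at this low signal, where a change may go unmeasured. Cish, the founding member of the family and a target of STAT5, read 6.60, 6.67, 5.88, 5.90, 5.55 and 5.21 in sham and 6.80, 6.68, 5.52, 6.07, 5.67 and 6.27 in injured mice. Its groups overlapped, and the spread between sets (mice 1 and 2 were the brightest in both groups) was larger than the difference of 0.20 (-0.43 to 0.82). The promoter with 2 STAT motifs printed above thus belongs to a gene with no call, and the promoter with 1 motif to the gene with the largest difference of the 8. The exact two-sided permutation test over the 12 arrays gave 0.0022 for Stat3, Socs2 and Socs3, the smallest p it can give for 6 against 6, and 0.0093 with mice exchanged within sets, again the smallest possible.

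**Figure D1:**
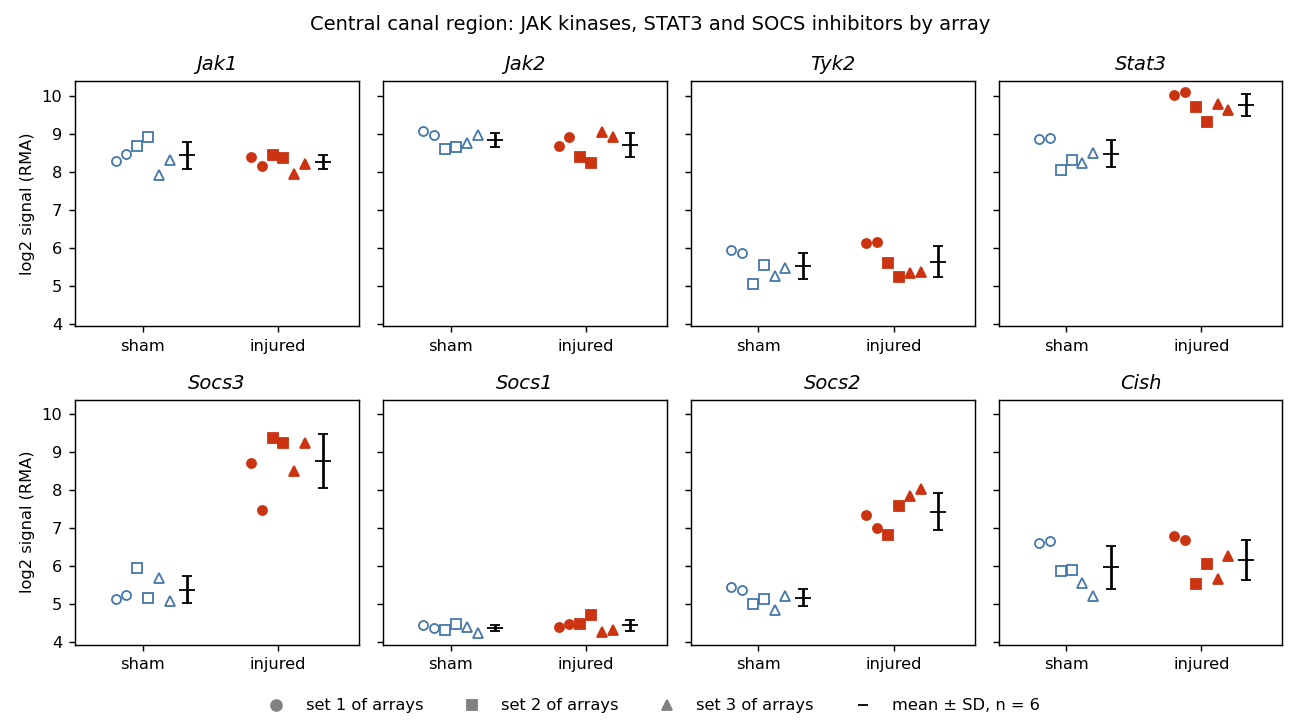
Log2 signal (y axis) of the 8 genes in sham mice (open symbols) and injured mice (filled symbols), 6 of each, with the symbol shape giving the set of arrays and the black bar the mean ± SD. Stat3, Socs2 and Socs3 show no overlap between sham and injured, whereas Jak1, Jak2, Tyk2, Socs1 and Cish do.

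Markers of other cell types were read on the same arrays, where 2.91% of all genes were higher and 1.87% lower without a block. Of 15 microglia and macrophage markers 5 were higher and 0 lower (Aif1 by 0.84, C1qb by 1.24 and C1qc by 1.44 on the log2 scale), and their mean signal ran from 5.91 to 7.0 in sham and from 6.62 to 7.44 in injured mice, with no marker in the lower quartile of all arrays. Of 10 astrocyte markers 3 were higher, namely Gfap (2.76), Aldh1l1 (2.15) and Aldoc (0.65), with list means of 8.09 to 8.80 and 8.63 to 9.41. Of 12 ependymal markers 9 were lower, led by Tmem212 (-1.38), Enkur (-1.11) and Ccdc153 (-1.95), with no overlap in their list means. Of 6 pericyte and smooth muscle markers 2 were higher (Kcnj8 by 3.24 and Vtn by 1.15; list means 5.96 to 6.36 and 6.49 to 7.57), and of 9 stem and progenitor markers 1 (Fabp7 by 1.68; 6.87 to 7.56 and 7.23 to 8.03). Of 10 neuronal markers 1 was lower (Syt1, -1.41; list means 8.35 to 9.87 and 7.04 to 9.23), as was 1 of 12 muscle markers (Mb, -2.08). None of the lists of neutrophils, endothelium, fibroblasts, erythroid cells and oligodendrocytes had a called member without a block. With the set as a block, where 12% of all genes were higher and 13.1% lower, 8 of the 10 neuronal and 11 of the 12 ependymal markers were lower, 5 progenitor markers were higher and 1 lower, 6 microglia and macrophage markers higher and 1 lower, 4 astrocyte markers higher and 1 lower, and 2 pericyte markers higher. The same fit had 2 endothelial markers higher and 2 lower, 1 oligodendrocyte marker higher, 1 fibroblast and 2 muscle markers lower, and none of the neutrophil and erythroid lists. The part of these cell types in the rise of Stat3, Socs2 and Socs3 was not tested. Without the 4 arrays of highest muscle signal (sham 3, 4 and 6 and injured 6) the differences were 1.12 for Stat3, 2.09 for Socs2 and 3.30 for Socs3, with adjusted p of 0.0458, 0.00585 and 0.00506.

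The remaining genes of the pathway were grouped by role. Of all genes, 2.91% were higher and 1.87% lower without a block, and 12% and 13.1% with the set as a block. Of 9 listed ligands of the interleukin-6 family, 5 were measured and none passed (Ctf1 -0.35, Il6 0.07). Ctf1, cardiotrophin 1, was lower with the set as a block (adjusted p = 0.0075). The paper reports the ligand CLCF1 as upregulated in the injured ependyma, and its gene is not among the calls here. Of 5 receptor genes, 1 passed without a block. Osmr, the oncostatin M receptor, rose from 5.83 ± 0.69 to 10.49 ± 0.16, a log2 difference of 4.66 (adjusted p = 1.69e-06). Il6ra, the interleukin-6 receptor, differed by 0.61 (adjusted p 0.109, and 0.0013 with the set as a block), and Il6st, which encodes gp130 itself, by -0.28 (0.764 and 0.015).

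Of the 7 other core genes measured, 2 rose after injury, Irf9 (1.46, adjusted p = 0.002), the DNA-binding partner of the interferon STATs, and Jak3 (0.64, adjusted p = 0.0257), a kinase of lymphoid cytokine receptors, which reached only 5.61 ± 0.28. With the set as a block 4 were higher and 1 lower (Stat5b, -0.47), where 12% of all genes were higher and 13.1% lower (2.91% and 1.87% without a block). Of the 4 other SOCS genes none passed, with Socs7 at -0.42 and Socs5 at 0.01, so within the 8 genes of the SOCS family measured the calls were those of Socs2 and Socs3. Only Socs7 was called once the set was a block (adjusted p = 0.011). None of the 12 PIAS proteins, phosphatases and adaptors that limit the pathway passed (Pias1 -0.52, Ptpn1 0.43). With the set as a block 3 of them were lower, against 13.1% of all genes. Of 9 receptors of interferons, growth hormone and related cytokines, 1 passed, the interferon receptor Ifnar2 (1.27, adjusted p = 0.0072). With the set as a block Il13ra1 (0.46) did as well, where 12% of all genes were higher.

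Of all genes, 2.91% were higher and 1.87% lower after injury (12% and 13.1% with the set as a block). Of 22 known STAT3 target genes, 13 rose after injury and 0 fell (14 and 0 with the block). The median log2 difference of these targets was 0.99, against 0.02 over all genes. The smallest p were those of A2m (1.92), a protease inhibitor of the acute phase, Timp1 (3.76), an inhibitor of metalloproteinases, Serpina3n (3.16), an acute phase serpin of reactive astrocytes, and Fos (3.47), an immediate early gene. Among the 9 targets without a call were Bcl2l1 (-0.03), Pim1 (0.04) and Pim3 (0.01), survival genes and kinases. Several of the targets are named as changed in the study of these arrays, and many answer to other factors as well, so the count is not independent evidence. Gfap is at the same time a marker of astrocytes. Of 7 STAT5 targets, Spry1 rose (2.06) and Ccnd2 fell (-0.88), as many as with the block. Only the brightest probe set of Ccnd2 was read, and the paper lists this cyclin among those upregulated after injury. Of 11 interferon targets Gbp2 (1.75) and Irf9 rose, with 6 higher when the set was a block.

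In neurospheres without growth factors, Stat3 (1.80-fold), Socs3 (1.61-fold), Jak1 (1.47-fold) and Jak2 (1.36-fold) were higher than in neurospheres with them. This made 4 of the 8 genes higher and 0 lower, where 12.1% of all genes were called higher and 16.2% lower. After the factors returned, Stat3, Socs3 and Jak2 fell against the state without (3 lower and 0 higher, against 6.56% of all genes lower and 10.1% higher). Against cultures that never lost the factors, returned cultures stayed higher in Jak1 and Stat3 (2 higher and 0 lower, against 7.86% of all genes higher and 7.43% lower). These 2 calls were not stable, as 0 or 1 of them remained with any 1 array left out. In the same order, the states did not overlap for 4 genes higher (Stat3, Jak1, Socs2 and Socs3, against 13.2% of all genes), 3 lower (Stat3, Socs2 and Socs3, against 8.45%) and 2 higher (Stat3 and Jak1, against 10.8%). With the culture number as a block the calls of the 8 genes were the same, where 13.9% of all genes were higher in the first comparison, 8.28% lower in the second and 9.40% higher in the third. None of the 8 met the thresholds of the study's methods, as did 4.14%, 1.47% and 2.55% of all genes in these directions. The 3 comparisons share arrays, so their differences are tied to each other. Median differences over the 8 genes were 0.29, -0.23 and -0.01, where those over all genes were 0.00, -0.02 and -0.02.

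Stat3 read 8.50, 8.20, 8.42 and 8.43 in cultures 1 to 4 with growth factors, 9.39, 9.25, 9.17 and 9.15 without, and 8.63, 8.73, 8.71 and 8.76 with returned factors. The 3 states did not overlap, and their order was with, returned, without. The differences were 0.85 (SE 0.08, 0.67 to 1.04) for without against with, -0.53 (-0.72 to -0.35) for returned against without and 0.32 (0.13 to 0.50) for returned against with, with limma adjusted p of 1.14e-05, 0.00113 and 0.0319. The last was lost in 6 of the 8 fits without 1 array of these states (adjusted p up to 0.0903).

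Jak1 read 7.63, 7.62, 7.66 and 7.57 with growth factors, 8.30, 8.23, 8.21 and 7.93 without, and 7.96, 7.89, 7.95 and 7.97 with returned factors. Culture 4 was the lowest without factors, where it lay inside the range of the returned cultures. Without against with gave 0.55 (0.37 to 0.73, adjusted p = 3.28e-04), returned against with 0.33 (0.15 to 0.51, adjusted p = 0.0253, lost in 6 of 8 fits without 1 array, up to 0.0693), and returned against without -0.23 (-0.41 to -0.05), which did not pass (adjusted p = 0.105). Jak2 read 8.14, 7.99, 8.03 and 7.87, then 8.53, 8.60, 8.70 and 7.97, then 7.97, 7.92, 8.01 and 7.96. The cultures with and returned overlapped almost wholly (difference -0.04, -0.33 to 0.26). Culture 4 without factors again stood low and overlapped both other states, so that the calls of 0.44 (adjusted p = 0.0345) and -0.48 (adjusted p = 0.0356) rest on a wide spread and were lost under several alternatives given in the closing part. Tyk2 lay between 5.24 and 5.91 over the 12 arrays, with differences of -0.21 (-0.46 to 0.04), 0.09 (-0.16 to 0.34) and -0.12 (-0.37 to 0.13) in the 3 comparisons and no call. The whole array of culture 4 without factors had the highest median signal (4.08) and the lowest upper quartile (5.63) of the 12 arrays. The part of this in its low kinase signals was not tested.

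Socs3 read 4.93, 5.07, 4.89 and 5.03 with growth factors, 5.72, 6.06, 5.40 and 5.49 without, and 5.29, 5.17, 5.08 and 5.03 with returned factors. All cultures without factors lay above those of both other states, which overlapped each other. The differences were 0.69 (SE 0.13, 0.41 to 0.97, adjusted p = 0.00162), -0.53 (-0.81 to -0.25, adjusted p = 0.0166) and 0.16 (-0.12 to 0.44, adjusted p = 0.603). A second, dimmer probe set of Socs3, below the array median on 12 of 12 arrays, differed by 0.24, -0.31 and -0.07 and did not pass.

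Socs2 lay below the array median on 12 of 12 neurosphere arrays, between 3.75 and 3.99. At this low signal its brightest probe set differed by 0.13, -0.12 and 0.01, with no call. The states without and with did not overlap on it. Its second probe set, dimmer still at 2.84 to 3.98, was called higher without factors (0.50, adjusted p = 0.029) and lower after their return (-0.58, adjusted p = 0.0196). Socs1 lay below the array median on 11 of 12 arrays and differed by -0.10, 0.02 and -0.07, and Cish, at 3.89 to 4.59, by 0.13, -0.24 and -0.11, with no call for either. With 4 cultures a state the exact two-sided permutation test cannot go below 0.029, which it reached for Stat3 in all 3 comparisons.

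**Figure D2:**
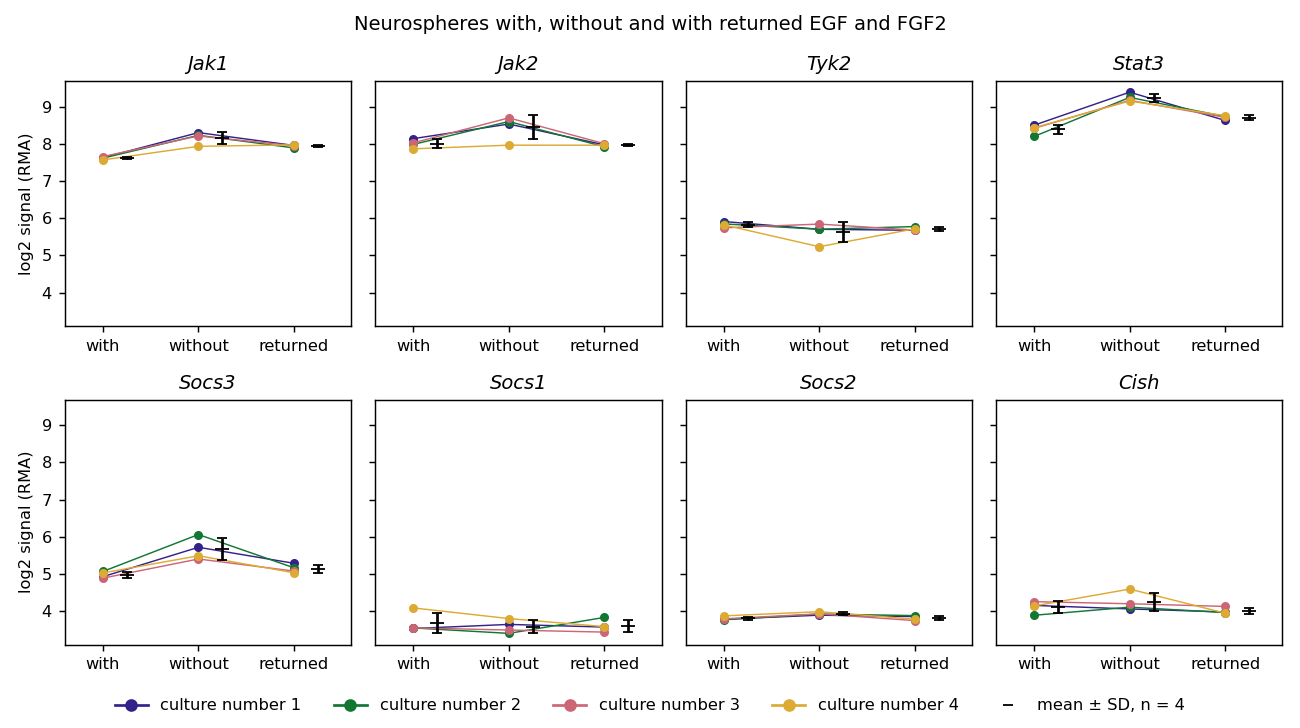
Log2 signal (y axis) of the 8 genes in neurospheres with growth factors, without them and after their return, with 1 line for each of the 4 culture numbers and the black bar giving the mean ± SD (n = 4). Stat3, Socs3, Jak1 and Jak2 have their highest mean without factors. Culture 4 without factors is the lowest of its state for Stat3, Jak1, Jak2 and Tyk2, and the highest for Socs1, Socs2 and Cish.

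**Figure D3:**
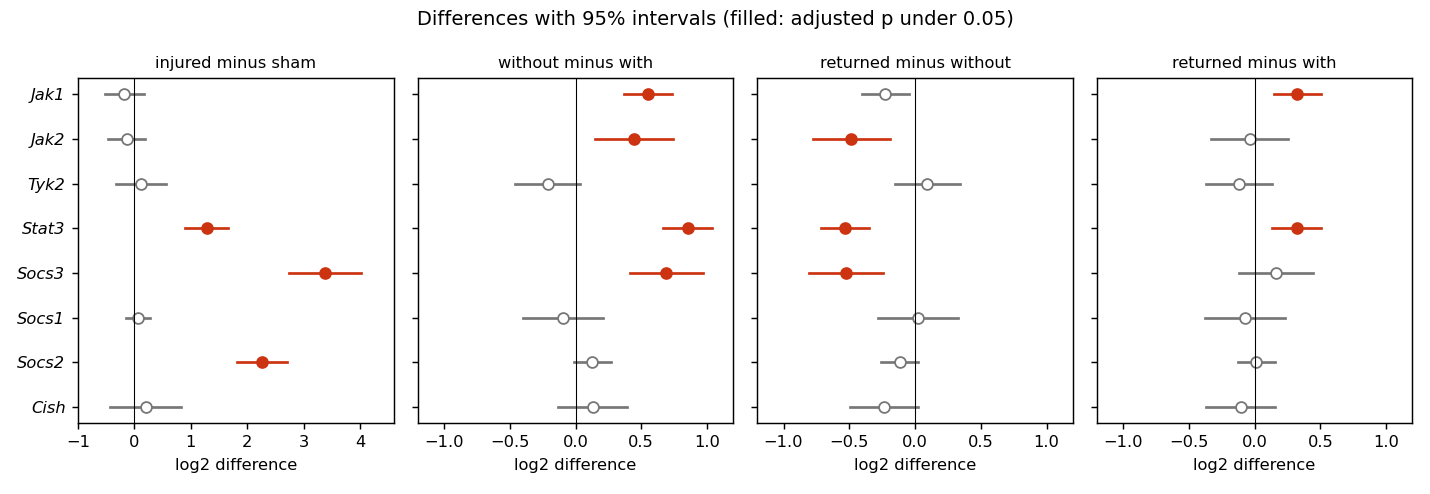
Log2 difference (x axis) with its 95% interval for the 8 genes in the comparison of injured with sham and in the 3 comparisons of neurospheres, filled where the limma adjusted p was under 0.05. The axis of the injury panel is wider than those of the neurosphere panels. Socs3 (3.38), Socs2 (2.27) and Stat3 (1.28) are filled after injury, and Stat3 is filled in all 4 panels.

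The receptor genes differed between the 3 states too. Of all genes, 12.1% were higher and 16.2% lower without factors, 10.1% and 6.56% after the return, and 7.86% and 7.43% in returned against with. Without factors Osmr rose from 3.78 ± 0.03 to 8.55 ± 0.37 (log2 difference 4.77), Il6st rose by 1.59 and Il6ra by 0.56, and Lifr, the receptor chain for leukemia inhibitory factor, fell by 0.89. After the return Osmr (-1.11) and Il6st (-0.78) fell, Il6ra rose (0.86) and Lifr differed by 0.00. Against never withdrawn cultures Osmr (3.66), Il6ra (1.42) and Il6st (0.82) were higher and Lifr lower (-0.89). Of 7 ligands only Clcf1, a partner of the ciliary neurotrophic factor receptor, passed, with 1.00, 1.41 and 2.42 in the 3 comparisons, so it was highest after the return.

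Of 6 other core genes Irf9 alone was called, higher without factors (0.77) and after the return (0.57, both against with), with no call between the 2 states. Among the 4 other SOCS genes, Socs5 fell (-0.65) and Socs7 rose (0.50) without factors, and both turned back after the return (1.08 and -0.56), with no call against never withdrawn cultures. Of the 12 limiting proteins Cbl, a ubiquitin ligase of growth factor receptors, was called in each comparison (-0.92, 0.41 and -0.51). Of 10 receptors of interferons, growth hormone and related cytokines, 2 rose and 1 fell without factors (Ifngr1 1.22, Ghr 0.89, Ifnar1 -0.32), 2 rose after the return (Ifnar1 0.42, Ifnar2 0.72), and 2 were higher than in never withdrawn cultures (Ifngr1 0.84, Ifnar2 0.60). Such counts among 10 genes lie near the shares of all genes.

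STAT3 targets were called in both directions in neurospheres. Without factors 9 of 22 rose and 3 fell (median 0.03), where 12.1% of all genes rose and 16.2% fell, so the share that fell was no larger than among all genes. Gfap, the intermediate filament of astrocytes, rose by 4.06 and the survival gene Bcl2l1 by 1.36, whereas the mitotic gene Birc5 fell by 2.97 and Myc by 1.26. After the return 7 rose and 4 fell (median -0.01), where 10.1% of all genes rose and 6.56% fell, with Timp1 at 2.79, Gfap at -3.07, Birc5 at 2.18 and Ccnd1 at 3.11. Against never withdrawn cultures 5 were higher and 3 lower (median 0.37), where 7.86% of all genes were higher and 7.43% lower, led by Timp1 (2.39), Bcl2l1 (1.18), Mcl1 (1.04) and Vim (0.43). Ccnd1, Birc5 and Myc are genes of proliferating cells, and each fell without factors and rose on their return. The same shares of all genes stand beside the counts of the shorter lists of STAT5 and interferon targets. Of 8 STAT5 targets 2 rose and 3 fell without factors (Igf1 1.59, Spry1 -2.47), 2 rose and 1 fell after the return (Spry1 1.55, Igf1 -1.30), and 1 was higher and 2 lower against with (Bcl2l1 1.18, Bcl6 -0.54). Of 12 interferon targets 1 was called higher in each comparison (Irf9 in both comparisons against with, and Gbp3 by 0.62 after the return).

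**Figure D4:**
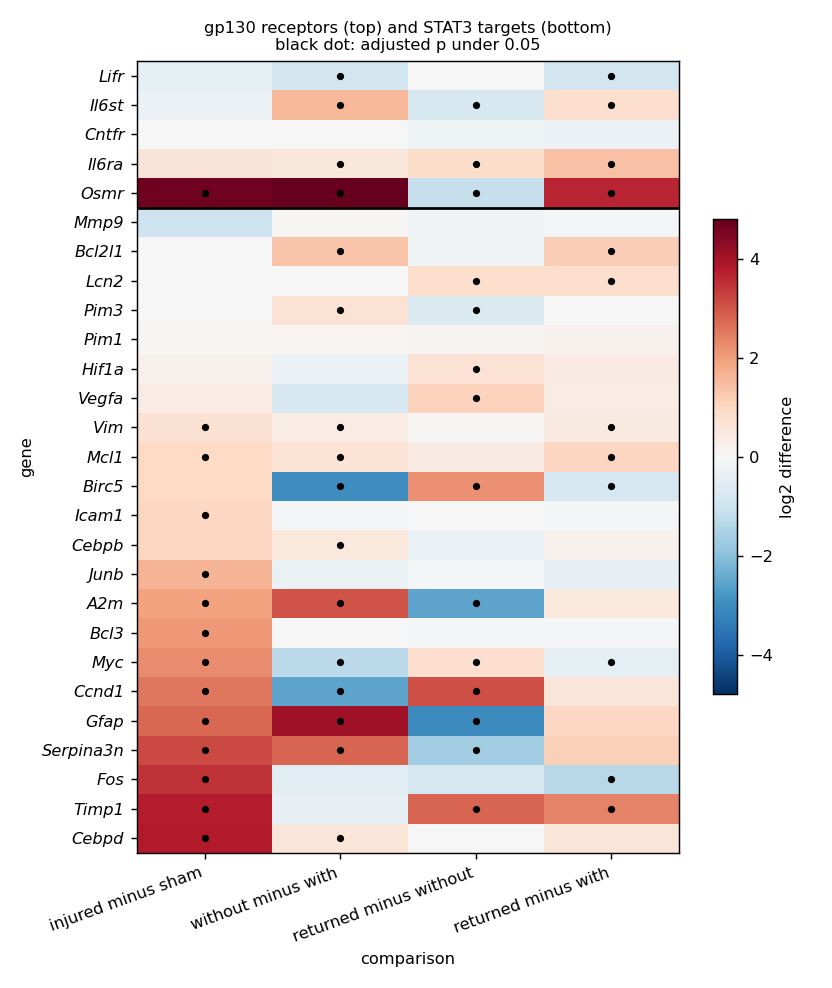
Log2 difference (colour) of 5 gp130 family receptor genes (above the line) and 22 STAT3 target genes (below it, ordered by their difference after injury) in the 4 comparisons, with a black dot where the limma adjusted p was under 0.05. Osmr is called in all 4 comparisons, and 13 of the 22 targets are called higher and 0 lower after injury, while called targets run in both directions in neurospheres.

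Markers of other cell states moved in the same cultures. Of all genes, 12.1% were higher and 16.2% lower without factors, and 10.1% and 6.56% after the return. Without factors 8 of 12 ependymal markers rose and 0 fell, and 5 of 10 astrocyte markers rose and 1 fell. List means of ependymal markers were 4.17 to 4.32 with and 5.16 to 5.41 without factors. Those of astrocyte markers were 6.46 to 6.57 and 7.52 to 7.87. After the return 8 ependymal markers fell and 0 rose (4.47 to 4.64), and 5 astrocyte markers fell and 1 rose (6.88 to 7.07). Of 9 pericyte and smooth muscle markers 2 rose and 1 fell without factors (Acta2 3.29, Tagln 2.21, Cspg4 -1.30), and of 11 endothelial markers 2 rose (Kdr 2.94, Slco1a4 2.63). Of 9 stem and progenitor markers 4 rose and 5 fell without factors, with list means of 7.64 to 7.83 and 7.70 to 7.87. Of 15 microglia and macrophage markers 0 were called between without and with. In returned against without 1 was higher and 1 lower. In returned against with 1 was higher and 0 lower, where 7.86% of all genes were higher and 7.43% lower. The part of these shifts in the differences of the 8 genes was not tested.

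The genes whose signal over the 12 ependymal arrays was most like that of Socs3, once the mean of each set was taken out, were Aldh1l1 (Pearson's r 0.991), Rdh10 (0.990), Ccdc80 (0.989), Etv5 (0.988) and Ackr3 (0.988), and those most like Stat3 were Fgl2 (0.992), Ecm1 (0.991), C4b (0.990), Itgav (0.989) and Tcim (0.988). Socs3 itself had r of 0.952 with Socs2 and 0.943 with Stat3, against 0.446 with Cish. In neurospheres the closest to Socs3 over 12 arrays were Arhgap21 (0.952), Tab2 (0.95), Muc1 (0.949), Lrrc52 (0.947) and Sdk2 (0.945), and to Stat3 Ankrd42 (0.984), Armc2 (0.982), Ift80 (0.981), Eml2 (0.980) and Cfap61 (0.980). There Jak1 followed Stat3 with 0.916 and Socs3 with 0.808. The arrays of a table share the split into groups, so r describes that split together with the spread within groups. For neither gene did the 5 closest genes of the ependymal arrays appear among the 5 closest in neurospheres.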

How the data were processed

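RNA of 12 microdissected ependymal regions (6 sham, 6 injured) and 4 neurosphere cultures in 3 states (12 arrays) was measured on Affymetrix arrays. The authors deposited log2 signals after RMA (background correction, normalization between arrays, summary of probes). Affymetrix Expression Console 1.2.1 is named in the submitters' processing notes. The number of arrays limits precision. After 104 and 190 control probe sets were left out, 45037 (28898 naming 1 gene, 551 several, 15588 none) and 41155 (23521, 1820, 15814) were fitted with limma 3.58.1 (lmFit, eBayes; R 4.3.3), two-sided, with Benjamini-Hochberg adjustment over all of them and a threshold of 0.05. Sham and injured arrays were fitted without a block, and the 3 neurosphere states together. Figures used matplotlib 3.10.9 in Python 3.11.15.

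The 8 genes, the pathway and cell type lists and the alternatives were chosen with earlier results of these data known. Named were all 8 genes, the called members of each pathway list by smallest p, up to 4 of them (or up to 2 uncalled), up to 3 for cell type lists, and the 5 genes most like Socs3 and Stat3. Genes named outside this rule were chosen after their values were seen, as were Il6ra, Il6st, Socs5, Stat5b, Bcl2l1, Pim1 and Pim3 after injury.

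Same-numbered neurosphere arrays deviated together (correlations of 0.312 to 0.391, 0.275 to 0.359 and 0.160 to 0.306 in the 3 comparisons). This cannot tell a shared culture from arrays handled together, and the labels give only the shared number. That the number pairs cultures was therefore assumed for the block. Same-numbered sham and injured arrays are different mice (0.425 to 0.786, but -0.575 to 0.105 without the set means), and a block for their number was read only as a proxy of the set. Where the sources do not say which separate litters or preparations samples came from, p-values measure the spread between these samples only. Alternatives were centring, quantile normalization, a filter on dim probe sets, other moderation, array weights, blocks, single sets, arrays left out, the mean of a gene's probe sets, 2-group fits and the thresholds of the study's methods (unadjusted p of at most 0.05, fold of at least 2).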

Additional observations from a re-analysis of the deposited data

Results flagged for a closer look

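Socs1 in culture 4 with growth factors had a log2 signal of 4.09, where the other 3 cultures lay between 3.53 and 3.55. It was the 1 outlying array among 40 groups of values screened, and chance marks about 1 in 20 groups. Without this culture the difference of Socs1 between without and with turned from -0.10 to 0.04, with no call in either case.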

How the results depend on the processing

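After injury the calls of Stat3, Socs2 and Socs3 held in every alternative run, apart from Stat3 (adjusted p = 0.0711) and Socs3 (0.0652) within the third set of arrays, where 1 gene of the 8 was called higher. The number of genes called in all, 817, became 1290 with quantile normalization, 3606 with the replicate block, 4284 with the set as a block, 2367 within the first and 67 within the third set, 540 without the 4 arrays of highest muscle signal and 3263 when the set was then a block. It was 583 to 813 with 1 array left out. Uncalled differences changed sign for Jak1 (0.038) and Cish (-0.13) without the muscle-rich arrays, Socs1 (-0.026) with the block added, Jak2 (0.12), Tyk2 (-0.0064) and Socs1 (-0.019) within the third set and Cish (-0.10) within the second.

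In neurospheres the replicate block changed no call of the 8 genes. At the thresholds of the methods, which ask for a fold of 2, 0 of the 8 genes passed in any of the 3 comparisons, and all genes called went from 6271 to 1913 (without against with), 3702 to 881 (returned against without) and 3391 to 788 (returned against with). With 1 array left out they were 5599 to 6021, 2993 to 3540 and 2563 to 3424, and the genes of the 8 called 3 to 4 higher, 2 to 4 lower and 0 to 1 higher. A fit of only the returned and without arrays called 1 lower, as Socs3 (adjusted p = 0.0532) and Jak2 were lost. Jak2 was lost in 9 of 17 alternatives for without against with (adjusted p up to 0.102) and in 10 of 17 for returned against without (up to 0.100), centring, no moderation and most omissions among them. For returned against with, Stat3 (up to 0.0903) and Jak1 (up to 0.0693) were each lost in 6 omissions of 1 array. Jak1 was called lower after the return without culture 4 of the without state, with quantile normalization and with array weights. With the mean of its probe sets Socs2 was called higher without factors (adjusted p = 0.0189) and lower after the return (0.017), the first also with no moderation, and differed by -0.037 between returned and with. Uncalled differences changed sign with 1 array left out for Socs1 in without against with (-0.17 to 0.040), Tyk2 (-0.038 to 0.17) and Socs1 (-0.053 to 0.094) in returned against without, and Jak2 (-0.085 to 0.0063), Socs1 (-0.15 to 0.062) and Socs2 (-0.0096 to 0.035) in returned against with. The cause of these changes was not tested. Signal near background limits Socs1 in both tables and Socs2 in neurospheres.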
